A study of Caenorhabditis elegans with 17 samples.

Results

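The ribosomal RNA genes of the C. elegans rDNA unit were rrn-1.1 and rrn-1.2 (2 gene copies of 18S), rrn-2.1 (5.8S) and rrn-3.1 (26S). They were chosen by class and locus name, without use of any measured value, and were 4 of the 20 rows of class rRNA and of the 56373 transcript rows. The other 16 rows of that class were 5S genes. In the Ensembl annotation of WBcel235, the 4 genes of the unit lay on the plus strand near the right end of chromosome I. Each was annotated as a noncoding rRNA transcript without introns. F31C3.7 (rrn-1.1, WBGene00004512) spanned I:15062083-15063836, F31C3.11 (rrn-2.1, WBGene00004567) spanned I:15064301-15064453 and F31C3.9 (rrn-3.1, WBGene00004622) spanned I:15064838-15068346. F31C3.8 (rrn-1.2, WBGene00004513) spanned I:15069280-15071033. With 1754 nt for 18S, 153 nt for 5.8S and 3509 nt for 26S, these rRNAs made up 32.4%, 2.82% and 64.8% of the unit's rRNA length. The spacers between them, 464 nt from 18S to 5.8S, 384 nt from 5.8S to 26S and 933 nt from 26S to the next 18S, were not analysed here.

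RNA polymerase I transcribes 18S, 5.8S and 26S as a single precursor, which is cut and trimmed in the nucleolus, while 5S is made separately by RNA polymerase III. The RNA exosome, a 3′ to 5′ exoribonuclease complex, trims rRNA precursors and degrades faulty ones. In C. elegans, RNA-dependent RNA polymerases can copy rRNA into antisense ribosomal siRNAs (risiRNAs), which the Argonaute NRDE-3 carries into the nucleus and nucleolus. A library of small RNAs from the unit therefore holds sense fragments, which are pieces of rRNA, beside antisense reads.

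Small RNAs were sequenced from 17 conditions with 1 library each, all at 20 °C by the labels. The L3 total small RNA libraries were dis-3(ust56), exos-1(ust57) and N2 (wild type), and, all carrying eri-1(mg366), a dis-3(ust56) strain that also carried rrf-1(pk1417) and rrf-2(ok210), eri-1(mg366);dis-3(ust56), eri-1(mg366);exos-1(ust57), eri-1(mg366);exos-10(ok2269) and eri-1(mg366) itself. The same 5 eri-1(mg366) genotypes gave NRDE-3 IP libraries, from L3 animals with a 3xFLAG::GFP::NRDE-3 transgene. The RNAi libraries were total small RNA of young adult eri-1(mg366) animals on fib-1, mtr-4, nol-56 or L4440 RNAi, L4440 being the empty vector. In what follows the alleles and the signs between the genes are left out of the names, so that the strain with both rrf alleles is eri-1 dis-3 rrf-1 rrf-2. DIS-3 and EXOS-10 are the exosome's ribonucleases and EXOS-1 is a subunit of its cap. The dis-3 allele is a missense mutation that leaves animals fertile, and the exos-1 allele is a deletion made by genome editing. ERI-1 is an exonuclease that also trims the 3′ end of 5.8S, and RRF-1 and RRF-2 are RNA-dependent RNA polymerases. FIB-1 (fibrillarin) and NOL-56 are nucleolar proteins of the complexes that methylate rRNA, and MTR-4 is a helicase that works with the nuclear exosome.

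Between 5094172 and 17155933 reads were counted per library. With no replicate, no difference below has a replicate check. Each test or interval compares 2 libraries, not their conditions, and covers counting error only, since PCR copies were not told apart. Sense reads of exos-1 were 70 in the NRDE-3 IP library labelled eri-1 exos-1, or 18.3 per 1000000 sense protein-coding reads, against 47 reads, or 20.1 per 1000000, in the NRDE-3 IP eri-1 library. Their level thus did not show the deletion, and that library is called by its label below. Among 6123 genes, 134 differed over 4-fold in sense level between the NRDE-3 IP libraries eri-1 and eri-1 dis-3 on the one hand and the other NRDE-3 IP libraries on the other, and 597 of 8191 genes did so between the 3 RNAi libraries and L4440. Genotype or RNAi and library cannot be told apart there.

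Sense fragments of the unit were abundant and varied strongly. Together the 4 genes took 6.44% of all counted reads in dis-3, 29.7% in exos-1 and 19.1% in N2. In the eri-1 animals they took 49.996% in eri-1 dis-3 rrf-1 rrf-2, 42.1% in eri-1 dis-3, 20.0% in eri-1 exos-1, 69.0% in eri-1 exos-10 and 36.6% in eri-1. In the NRDE-3 IP their share was 70.8% in eri-1 dis-3 rrf-1 rrf-2, 86.5% in eri-1 dis-3, 20.4% in the library labelled eri-1 exos-1, 30.04% in eri-1 exos-10 and 60.3% in eri-1. On RNAi the share was 39.0% for fib-1, 29.0% for mtr-4, 37.0% for nol-56 and 30.7% for L4440. The lowest and the highest share of the L3 total libraries thus both belonged to exosome mutants, dis-3 and eri-1 exos-10. In whole animals, fewer cells of a type and less RNA per cell cannot be told apart.

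Per nucleotide, 5.8S was covered less than 26S in all 17 libraries, while 18S was the least covered in dis-3 and exos-1. In N2 the sense level per nucleotide was 35.9 reads per 1000000 for 26S, 34.5 for 18S and 31.5 for 5.8S. In dis-3 it was 12.5 for 26S, 10.7 for 18S and 12.2 for 5.8S, so all of the unit was lower by a like factor. In eri-1 exos-10, the highest of the L3 total libraries, it was 140 for 26S, 104.5 for 18S and 87.9 for 5.8S, against 62.8, 80.8 and 28.9 in eri-1. The density of 18S relative to that of 26S ran from 0.240 in NRDE-3 IP eri-1 dis-3 to 1.29 in eri-1, and exceeded 1 in 3 libraries, eri-1, mtr-4 RNAi and nol-56 RNAi. That of 5.8S stayed below 1 in all 17 libraries, from 0.0390 in NRDE-3 IP eri-1 dis-3 rrf-1 rrf-2 to 0.975 in dis-3. Counted over the positions at which a 22 nt read can start, however, it came to 1.12 in dis-3 and 1.01 in N2.

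**Figure D1:**
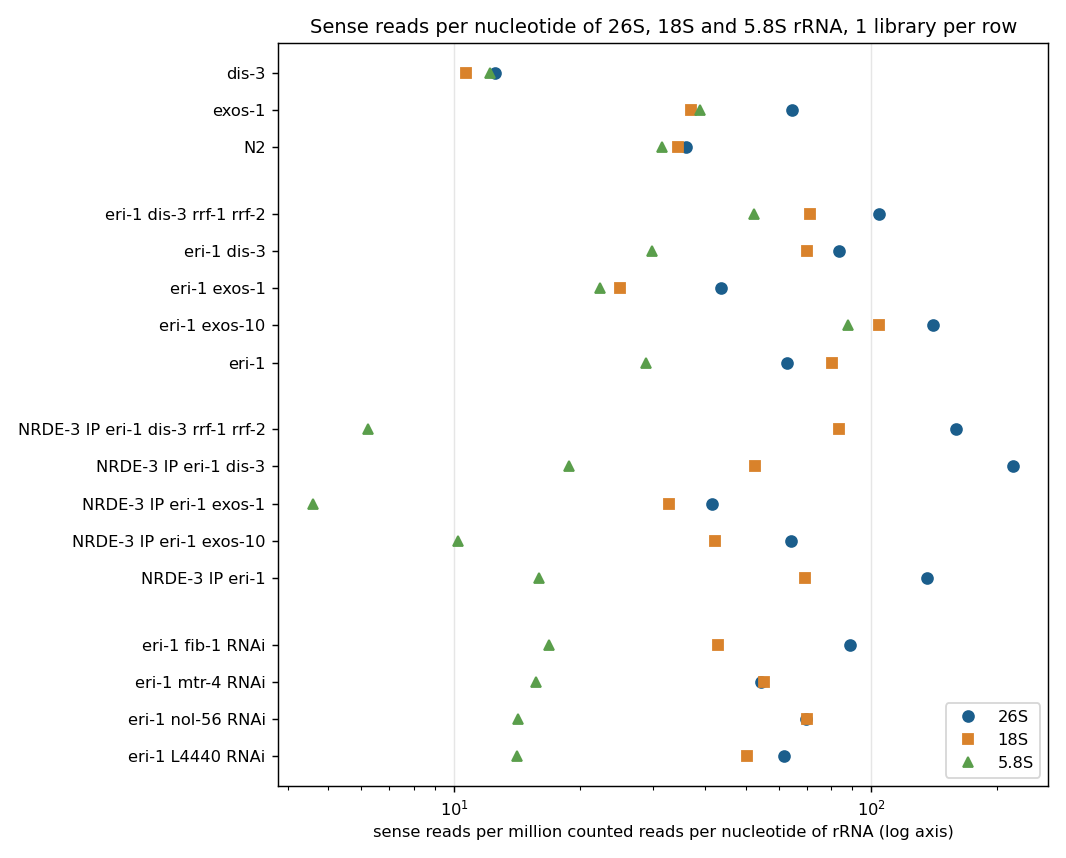
Sense reads per 1000000 counted reads and per nucleotide (x axis, log scale) for 26S (circles), 18S (squares) and 5.8S (triangles), with 1 library per row and alleles left out of the names. The 5.8S triangle lies left of the 26S circle in all 17 libraries, close to it in dis-3 and N2 and farthest from it in the NRDE-3 IP libraries.

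The relative density of 5.8S differed between sets of libraries. It was 0.975 in dis-3, 0.602 in exos-1 and 0.879 in N2. In the eri-1 libraries of L3 total small RNA it was 0.5003 in eri-1 dis-3 rrf-1 rrf-2, 0.355 in eri-1 dis-3, 0.513 in eri-1 exos-1, 0.626 in eri-1 exos-10 and 0.460 in eri-1. On RNAi it was 0.190 for fib-1, 0.290 for mtr-4, 0.204 for nol-56 and 0.228 for L4440. In the NRDE-3 IP it lay between 0.0390 and 0.159. The L3 total libraries with wild-type eri-1 thus held more 5.8S fragments per 26S fragment than most of those with eri-1(mg366), the exception being eri-1 exos-10, which lay above exos-1. No test was run on this order.

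The share of 26S among sense reads of the unit was above its share of the length in 16 libraries, the exception being eri-1 with 60.1%, and its share among antisense reads was higher than among sense reads in 15 of the 17 libraries. In 4 of these 15, all L3 total, the 95% Wilson interval of the antisense share held the sense share, so the shares differed beyond counting error in 11. The 4 were N2, eri-1, eri-1 exos-1 (74.3% to 84.8%, beside a sense share of 76.4%) and eri-1 dis-3 rrf-1 rrf-2 (62.9% to 93.0%, beside 73.3%). In dis-3 it was 84.6% of antisense and 68.1% of sense reads, in exos-1 94.6% and 76.2%, and in N2 87.5% and 65.8%. The N2 value came from 14 of 16 antisense reads, with an interval from 64.0% to 96.5%. In eri-1 exos-10 the antisense share of 26S was 94.9% (interval 91.9% to 96.8%) beside a sense share of 71.5%. The 2 exceptions were the NRDE-3 IP libraries eri-1 dis-3, with 80.1% of antisense and 89.0% of sense reads, and eri-1, with 74.6% and 79.4%.

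**Figure D2:**
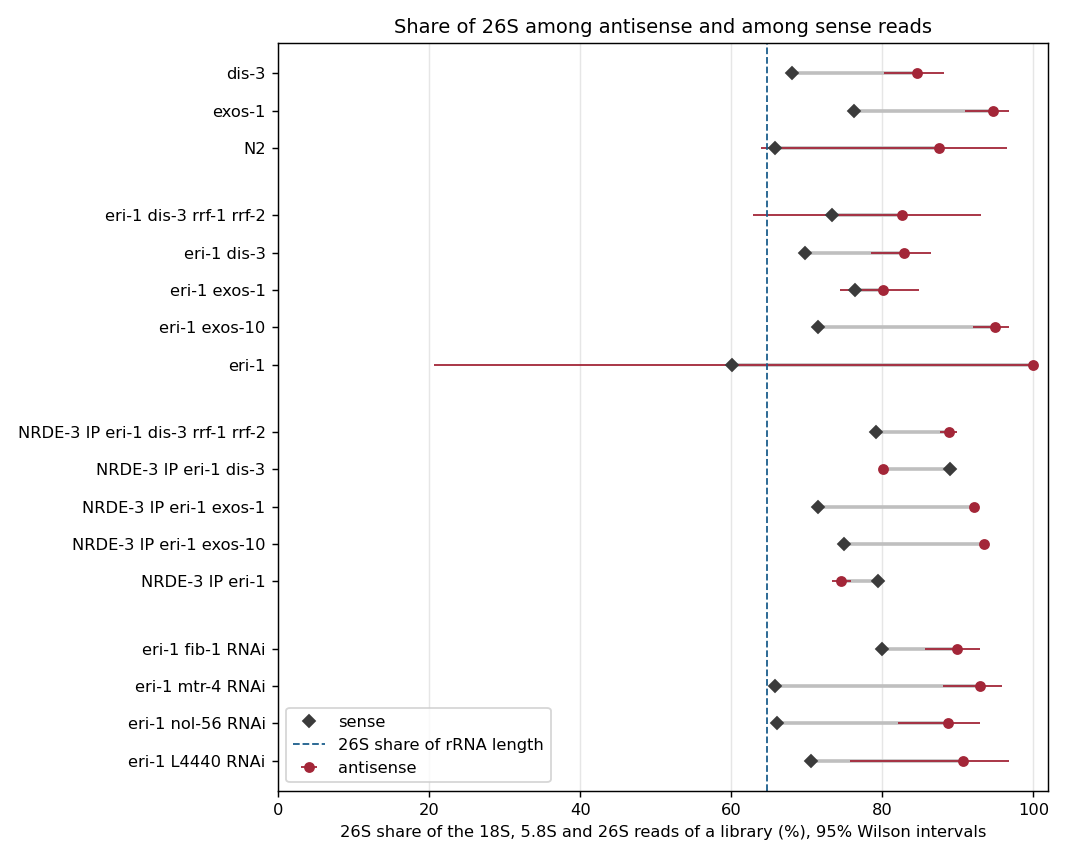
Share of 26S among the antisense reads (red circles, with 95% Wilson intervals) and among the sense reads (grey diamonds) of 18S, 5.8S and 26S, in percent (x axis), with 1 library per row. The antisense share lies right of the sense share in 15 of 17 libraries, with the sense share inside its interval in 4 of them, and the dashed line marks the 64.8% of rRNA length that is 26S.

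The antisense reads did not spread over the rRNAs in proportion to the sense reads. To compare rRNAs of different length and abundance, antisense reads were divided by the sense reads of the same rRNA. In dis-3, 26S had 270 antisense reads, or 792 per 1000000 sense reads (95% Wilson interval 703 to 892), whereas 18S had 48, or 330 per 1000000 (249 to 438). The rate of 18S was thus 2.40-fold lower than that of 26S (95% interval 1.76 to 3.33). It was 5.02-fold lower in exos-1 (2.88 to 9.57), 2.03-fold lower in eri-1 dis-3 (1.53 to 2.72) and 7.32-fold lower in eri-1 exos-10 (4.44 to 13.0). In eri-1 exos-1 no difference was detectable, with 40 reads for 18S and a rate 1.27-fold lower (0.894 to 1.83). With 2 antisense reads of 18S in N2, 3 in eri-1 dis-3 rrf-1 rrf-2 and 0 in eri-1, no difference was detectable there either.

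In the NRDE-3 IP the order of the rRNAs was not the same in all libraries. The rate of 18S was 2.04-fold that of 26S in eri-1 dis-3 (1.98 to 2.11) and 1.33-fold in eri-1 (1.24 to 1.42). It was 7.63-fold lower in the library labelled eri-1 exos-1 (7.34 to 7.94), 20.1-fold lower in eri-1 exos-10 (19.7 to 20.5) and 4.88-fold lower in eri-1 dis-3 rrf-1 rrf-2 (4.12 to 5.84). For 5.8S the same 3 libraries held a higher rate than 26S, by 6.91-fold (6.58 to 7.25), 7.76-fold (7.67 to 7.86) and 42.7-fold (36.6 to 49.5) in the same order. In eri-1 dis-3 the 5.8S rate was 1.01-fold that of 26S (0.796 to 1.27) and in eri-1 0.576-fold (0.276 to 1.06), which did not differ beyond counting error. Across the same split of the NRDE-3 IP libraries, 134 of 6123 genes differed over 4-fold in sense level. No other split is given beside it, and its part in the order of the rRNAs was not tested.

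All 4 RNAi libraries had a lower rate for 18S than for 26S. It was 2.63-fold lower on fib-1 RNAi (1.69 to 4.27), 9.99-fold lower on mtr-4 RNAi (4.95 to 23.5) and 4.54-fold lower on nol-56 RNAi (2.55 to 8.78). On L4440 it was 5.89-fold lower (1.49 to 51.0), from 2 antisense reads of 18S. Over all 17 libraries the rate of 18S was below that of 26S beyond counting error in 11, above it in 2 and not distinguishable in 4.

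Antisense reads of 5.8S were few outside the NRDE-3 IP. Dis-3 held 1, exos-1 0 and N2 0. There was 1 in eri-1 dis-3 rrf-1 rrf-2, none in eri-1 dis-3, 4 in eri-1 exos-1, 1 in eri-1 exos-10 and none in eri-1. A count of 0 allows up to 3 reads, which is 43.7 per 1000000 sense reads in exos-1, 83.6 in eri-1 dis-3, 65.1 in N2 and 133 in eri-1. Despite this, the 5.8S rate lay below that of 26S in dis-3 by 11.5-fold, from 1 read (interval 2.04 to 455), and in eri-1 exos-10 by 8.59-fold, also from 1 read (1.53 to 340). It was at least 1.99-fold lower in exos-1 and at least 1.498-fold lower in eri-1 dis-3. Outside the NRDE-3 IP the 5.8S rate was thus lower than that of 26S beyond counting error in 4 libraries and not distinguishable in 8. Among these 8, it was 1.01-fold that of 26S in eri-1 exos-1 (0.272 to 2.63) and 2.41-fold in eri-1 dis-3 rrf-1 rrf-2 (0.0581 to 15.2). On RNAi it was 2.52-fold for fib-1, 2.02-fold for mtr-4, 1.92-fold for nol-56 and 3.46-fold for L4440, with intervals that held 1.

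**Figure D3:**
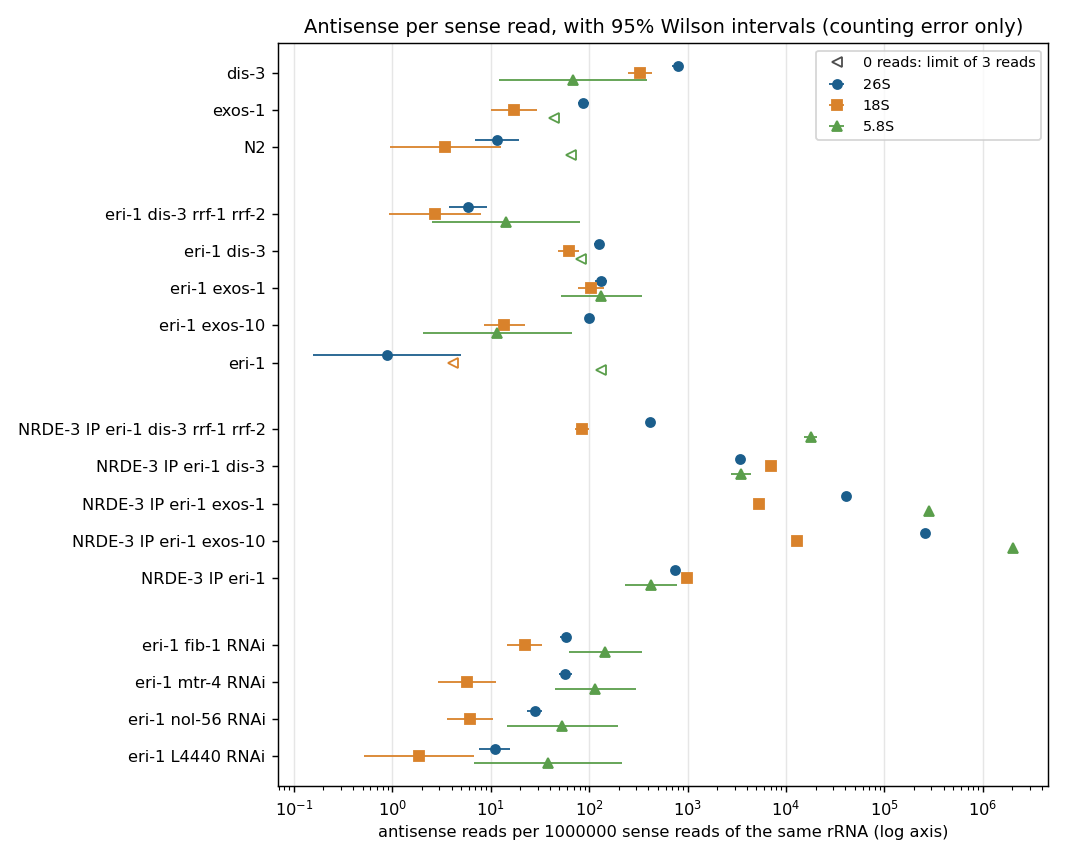
Antisense reads per 1000000 sense reads of the same rRNA (x axis, log scale) for 26S, 18S and 5.8S, with 95% Wilson intervals and 1 library per row. Open triangles mark 0 antisense reads, placed at the limit of 3 reads. The NRDE-3 IP libraries lie right of the total libraries of the same labelled genotype for every rRNA. In NRDE-3 IP eri-1 exos-10, 5.8S reaches 2006 antisense reads per 1000 sense reads.

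In dis-3 against N2, sense levels were lower and antisense levels higher. The sense level of 26S was 0.348-fold (95% interval 0.347 to 0.350) and that of 18S 0.309-fold (0.307 to 0.311), while 5.8S came to 0.386-fold (0.379 to 0.394). Antisense reads of 26S were 270 in dis-3 and 14 in N2, a level ratio of 23.7 (13.9 to 43.9), and those of 18S were 48 in dis-3 and 2 in N2, a ratio of 29.5 (7.73 to 250). Per sense read the 26S ratio was 68.0 (39.8 to 126) and the 18S ratio 95.5 (25.0 to 811). At least 10 antisense reads in either library and 10 sense reads in both were held by 3 of the 4 genes, and all 3 were at least 2-fold higher per sense read, where 35.2% of the 3009 genes tested were. Both 18S copies met the minimum through dis-3 alone, with 22 and 26 antisense reads there against 2 and 0 in N2, so the filter fixed their direction and the count carries nothing beyond rrn-3.1.

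In exos-1 against N2, both strands of 26S rose, the antisense strand by more. The sense level ratio of 26S was 1.80 (1.79 to 1.80), and antisense reads were 228 in exos-1 and 14 in N2, a ratio of 13.5 (7.85 to 25.0) and of 7.49 per sense read (4.37 to 13.9). For 18S there were 13 antisense reads in exos-1 and 2 in N2, with a ratio of 5.02 per sense read (1.14 to 45.8). With rrn-1.1 alone, from 4 reads against 2, that ratio was 1.59 (0.228 to 17.6) and its interval held 1. The other copy, rrn-1.2, had 9 antisense reads in exos-1 and 0 in N2. Reads that match both copies cannot be assigned, so neither copy is an independent check. The 18S sense ratio was 1.07, and 0.942 with size factors taken as the median of ratios over all rows. Only rrn-3.1 passed the read minimum, and it was past 2-fold, as were 18.9% of the 4735 genes tested. Its log2 ratio was 2.81, beside a median of -0.43.

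With eri-1 as the control, ratios rest on a single antisense read of 26S and none of 18S or 5.8S among 1866518 sense reads of the unit. In eri-1 dis-3, 290 antisense reads of 26S and 60 of 18S were found. Per sense read the 26S rate was 125 per 1000000 in eri-1 dis-3 and 0.891 per 1000000 in eri-1, a ratio of 141 (25.0 to 5572), and that of 18S was at least 14.9-fold higher. The sense level ratio of 26S was 1.33 and that of 18S was 0.869, or 1.01 with sense miRNA reads and 1.28 with median-of-ratios size factors as the denominator. In eri-1 exos-1, with 177 antisense reads of 26S and 40 of 18S, the 26S rate was 132 per 1000000, a ratio of 148 (26.2 to 5870), and that of 18S was at least 25.0-fold higher. Sense fragments were at the same time lower there, at 0.695-fold for 26S and 0.309-fold for 18S. The size of the 26S difference depended on the denominator. It was 0.997-fold with sense miRNA reads, 0.918-fold with size factors and 0.481-fold with the normalization number. That of 18S lay between 0.214-fold and 0.443-fold with the same denominators.

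In eri-1 exos-10, whose sense level of 26S was 2.24-fold that of eri-1 (2.23 to 2.24), 315 antisense reads of 26S gave 101 per 1000000 sense reads and a ratio of 113 (20.1 to 4474). The 16 antisense reads of 18S gave a rate at least 3.31-fold higher, and at least 1.197-fold higher with rrn-1.1 alone, whose interval went down to 0.705. Of these reads, 6 were counted on rrn-1.1 and 10 on rrn-1.2, against 0 on each in eri-1. Its sense reads of 5.8S were 3.05-fold those of eri-1 (3.00 to 3.09), with 1 antisense read. The 26S rates of the 3 mutants thus lay between 101 and 132 per 1000000, whereas their sense levels of 26S ran from 0.695-fold to 2.24-fold that of eri-1. No member had 10 antisense reads in eri-1, so those tested met the minimum only through the mutant, and that all were past 2-fold per sense read is set by the filter. They were 3 in eri-1 dis-3, 3 in eri-1 exos-1 and 2 in eri-1 exos-10. Of all genes tested, 20.4% were past 2-fold in eri-1 dis-3, 53% in eri-1 exos-1 and 48.2% in eri-1 exos-10. Nothing about the members was read from these counts.

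With rrf-1 and rrf-2 also mutated, antisense reads of the dis-3 mutant were fewer while its sense fragments were not. In eri-1 dis-3 rrf-1 rrf-2, 26S had 19 antisense reads, or 5.93 per 1000000 sense reads, against 290, or 125 per 1000000, in eri-1 dis-3. The rate was 21.1-fold lower (13.3 to 35.6), and that of 18S 22.6-fold lower (7.37 to 113), with 3 reads against 60. The sense level of 26S was 1.25-fold (1.25 to 1.25), that of 18S 1.02-fold and that of 5.8S 1.76-fold. All 3 members with enough reads were at most 0.5-fold per sense read, where 12.8% of all genes tested were. Both 18S copies met the minimum only through eri-1 dis-3, so their direction was fixed by the filter.

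Every rRNA had more antisense reads per sense read in the NRDE-3 IP than in total small RNA of the same labelled genotype. This held in 15 of 15 pairs, of which those of eri-1 exos-1 are matched by label only. For 26S, the IP held 3.44 antisense reads per 1000 sense reads in eri-1 dis-3 against 0.125 in the total library, a ratio of 27.4 (24.4 to 30.9), which was the lowest for 26S. The highest for 26S was that of eri-1 exos-10, with 258 per 1000 in the IP against 0.101 in the total library, a ratio of 2568 (2299 to 2877). For 5.8S in eri-1 exos-10, 29230 antisense reads exceeded the 14569 sense reads in the IP, whereas the total library held 1 antisense and 85395 sense reads. The higher rate was not limited to the unit, nor was it shared by all classes. In eri-1, miRNAs had 1.13 antisense reads per 1000 sense reads in the IP against 0.0768 in the total library, and tRNAs 91.8 against 0.181. The 5S genes had 8040 against 48.4 per 1000000, the latter from 3 reads. Per 1000 sense reads, piRNAs had 4.86 against 0.689, snRNAs 5.26 against 3.99 and snoRNAs 86.6 against 78.6. Protein-coding genes went the other way, with 71.1 in the IP against 372 in the total library. In other pairs snoRNAs were lower in the IP, with 158 against 232 in eri-1 dis-3 and 202 against 283 in eri-1 exos-1. They had 158.0 against 159.3 in eri-1 dis-3 rrf-1 rrf-2, and were higher in eri-1 exos-10, with 226 against 220. The snRNAs were lower in the IP in the eri-1 exos-1 pair, with 17.1 against 29.3, and higher in the other pairs. All 4 members were at least 2-fold higher per sense read in the IP in each pair. Of all genes tested, 11.6% were past 2-fold in eri-1 dis-3 rrf-1 rrf-2, 11.3% in eri-1 dis-3, 30.5% in eri-1 exos-1, 29.7% in eri-1 exos-10 and 12.2% in eri-1. Their median log2 ratio was -1.26, -1.74, 0.188, 0.192 and -1.86 in the same order. In 11 of these 20 combinations of member and pair the total library held fewer than 10 antisense reads, and the filter fixed the direction there. In all other libraries and rRNAs, sense reads outnumbered antisense reads. In the IP libraries miRNAs gave between 1306 and 82958 sense reads per 1000000.

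Among the NRDE-3 IP libraries, eri-1 dis-3 against eri-1 showed higher antisense rates for all 3 rRNAs. The 26S rate was 3.44 per 1000 sense reads in eri-1 dis-3 and 0.745 in eri-1, a ratio of 4.61 (4.45 to 4.79). The ratio was 7.09 for 18S (6.65 to 7.57) and 8.11 for 5.8S (4.17 to 17.6), where eri-1 dis-3 held 75 antisense reads and eri-1 held 10. All 4 members were past 2-fold, as were 26.1% of the genes tested, and their median log2 ratio was 2.82 beside 0.09. The sense level ratio was 1.61 for 26S and 0.758 for 18S, and that of 18S was above 1 with each of the other 3 denominators (2.35 to 48.2).

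The NRDE-3 IP library labelled eri-1 exos-1 and that of eri-1 exos-10 had far higher rates. For 26S the rate was 41.0 per 1000 in the library labelled eri-1 exos-1, 55.0-fold that of eri-1 (53.1 to 57.0), and 258 per 1000 in eri-1 exos-10, 347-fold that of eri-1 (335 to 359). For 18S the ratios were 5.42 (5.06 to 5.82) in the library labelled eri-1 exos-1 and 13.0 (12.2 to 13.8) in eri-1 exos-10. For 5.8S they were 659 (358 to 1378) in the library labelled eri-1 exos-1 and 4674 (2541 to 9747) in eri-1 exos-10, against 10 antisense reads in eri-1. Sense levels were lower for all 3 rRNAs in both, between 0.288-fold and 0.640-fold, but were above 1 (1.30 to 3.98) with sense miRNA reads as the denominator. All 4 members were past 2-fold in both, where 84.3% of all genes tested were in the library labelled eri-1 exos-1 and 83.6% in eri-1 exos-10. The median log2 ratio was 4.16 for the members and 2.50 for all genes in the library labelled eri-1 exos-1, and 6.09 and 2.52 in eri-1 exos-10. For the antisense level itself, 91.7% of genes tested were past 2-fold in the library labelled eri-1 exos-1, where the median log2 ratio was 2.76 for the members and 3.36 for all genes. In eri-1 exos-10 it was 90.9% of genes, with medians of 5.19 for the members and 3.24 for all genes. In the library labelled eri-1 exos-1, the median of the members thus lay below that of all genes by level, and above it per sense read. Single members lay on both sides of the gene median there by either measure. Their log2 ratios ran from 1.27 to 7.43 by level and from 2.34 to 9.23 per sense read, an 18S copy being the lowest in each.

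In NRDE-3 IP eri-1 dis-3 rrf-1 rrf-2 against eri-1 dis-3 the rRNAs parted ways. The 26S rate was 0.417 per 1000 against 3.44 per 1000, 8.25-fold lower (7.92 to 8.60), and the 18S rate was 82.4-fold lower (69.5 to 98.3), from 138 reads against 4848. The 5.8S rate was 5.11-fold higher (3.89 to 6.77), with 187 antisense and 10516 sense reads against 75 antisense and 21550 sense reads. The antisense level of 5.8S was 1.69-fold with all counted reads as the denominator and 0.512-fold to 0.541-fold with the other 3. Of the 4 members 3 were at most 0.5-fold per sense read, where 14.1% of genes tested were. The median log2 ratio of the 4 members was -4.64, beside 0.60 over all genes.

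**Figure D4:**
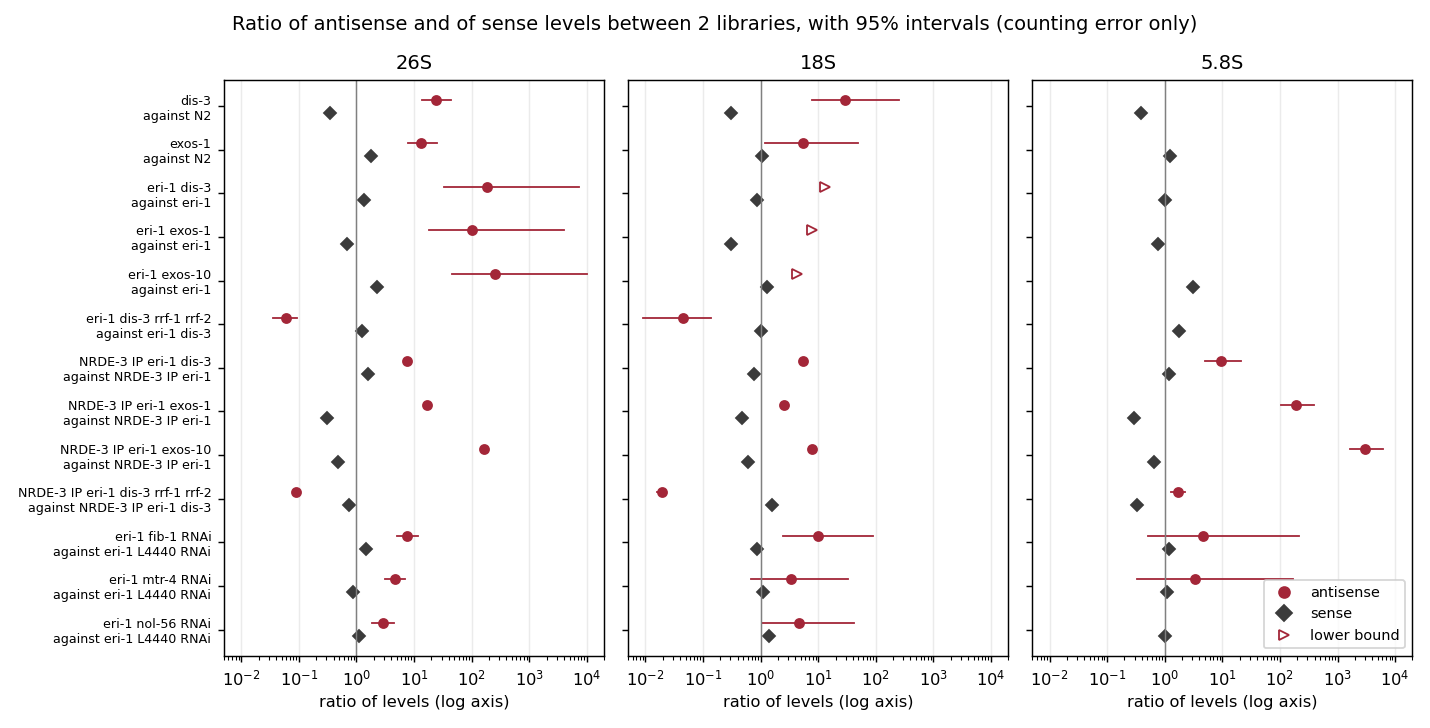
Ratio of the antisense level (red circles) and of the sense level (grey diamonds) between both libraries of each of 13 comparisons (x axis, log scale, with 95% intervals), for 26S, 18S and 5.8S. Levels are reads per 1000000 counted reads, open triangles mark ratios against 0 reads, and pairs without a ratio are left out. For 26S the antisense ratio is above 1 in all 11 comparisons of a mutant or an RNAi with its control, while the sense ratio lies on either side of 1.

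On RNAi the antisense reads were fewer, and 26S was higher in each. There were 239 antisense reads of 26S on fib-1 RNAi, 157 on mtr-4 RNAi and 117 on nol-56 RNAi, against 29 on L4440. The rate was 57.9 per 1000000 sense reads on fib-1 RNAi, 57.4 on mtr-4 RNAi and 27.9 on nol-56 RNAi, against 11.0 on L4440. The ratio was 5.27 for fib-1 (3.57 to 8.04), 5.22 for mtr-4 (3.49 to 8.04) and 2.53 for nol-56 (1.68 to 3.95). For 18S, with 2 reads on L4440, the ratio was 11.8 for fib-1 (2.91 to 104), from 22 reads, whereas the intervals for mtr-4 (0.614 to 29.8) and nol-56 (0.745 to 30.02) held 1. The intervals of 5.8S, from 5 reads or fewer, held 1 in all 3.

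Sense levels of 26S on RNAi lay on either side of that on L4440. The ratio was 1.44 for fib-1, 0.879 for mtr-4 and 1.13 for nol-56, where that of mtr-4 was 1.25 with size factors and that of nol-56 was 0.615 with sense miRNA reads. Past 2-fold per sense read were 3 of 3 members with enough reads for fib-1, 1 of 1 for mtr-4 and 1 of 1 for nol-56. Of all genes tested, 17.6% were on fib-1 RNAi, 19.5% on mtr-4 RNAi and 7.6% on nol-56 RNAi. For fib-1 both 18S copies met the minimum only through that library, with 12 and 10 antisense reads against 1 and 1 on L4440, so their direction was fixed by the filter. The log2 ratio of rrn-3.1 was 2.34 for mtr-4, beside a median of -0.19 over all genes, and 1.31 for nol-56, beside -1.15.

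Across the 11 comparisons of a mutant or an RNAi with its control, the antisense rate of 26S was thus higher in 11, while its sense level was higher in 6 and lower in 5. The rate of 18S was higher in 9 and not distinguishable in 2, while its sense level was higher in 4 and lower in 7. Over all 13 comparisons and 3 rRNAs, both strands could be called in 29 pairs, in the same direction in 11 and in opposite directions in 18. This balance depended on the denominator. The same and the opposite direction were found in 13 and 15 pairs with the normalization number, in 17 and 12 with size factors, and in 19 and 9 with sense miRNA reads. These comparisons share control libraries and a denominator. With the other 3 denominators, 28 of 117 recalculated sense ratios turned direction and 4 of 96 antisense ratios did.

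Over the 8 L3 total libraries, the relation of antisense to sense level changed sign with the rRNA and with the denominator. As a description, Pearson's r of the log2 levels was -0.04 for 26S, -0.37 for 18S and -0.08 for 5.8S, with Spearman's rho of 0.33, -0.38 and -0.21. Without the libraries farthest from the median sense level, which were dis-3 and eri-1 exos-10 for each rRNA, r was 0.10, -0.29 and -0.41. With the normalization number as the denominator it was 0.20 for 26S, -0.02 for 18S and 0.49 for 5.8S, with rho of 0.29, -0.02 and 0.29. Before the log, 1 read was added to each antisense count. With 0 to 4 antisense reads of 5.8S in these libraries, its r is mostly set by the denominator. Nothing about 5.8S was read from it. Both levels of a library are divided by the same total, so the points share it. The dis-3 library had the lowest sense level of 26S among the 8 with all counted reads as the denominator, and an antisense level of 34.7 reads per 1000000 that was exceeded only by eri-1 dis-3 (36.8) and eri-1 exos-10 (49.6).

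**Figure D5:**
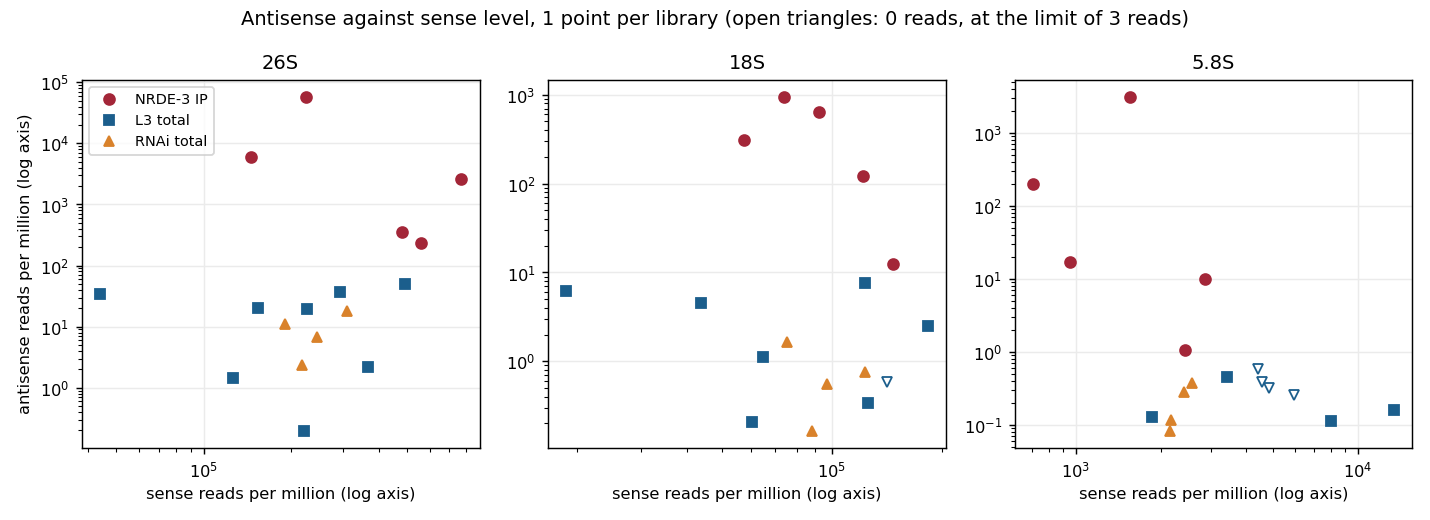
Antisense level against sense level (both in reads per 1000000 counted reads, log axes) for 26S, 18S and 5.8S, with 1 point per library: NRDE-3 IP (circles), L3 total (squares) and RNAi total (triangles). Open triangles mark 0 antisense reads at the limit of 3 reads. Among the 8 L3 total libraries Pearson's r is -0.04 for 26S, and the NRDE-3 IP points lie above the others.

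The share of rrn-1.1 in the 18S sense reads ran from 46.2% to 50.5% over the 17 libraries, and in each of them the 95% Wilson interval left out 50%. For antisense reads it did so in 2 of the 16 libraries that had any. Those were eri-1 exos-1, with 27 of 40 reads, or 67.5% (52.0% to 79.9%), and NRDE-3 IP eri-1 dis-3, with 2347 of 4848 reads, or 48.4% (47.0% to 49.8%). Reads that match both copies cannot be assigned, so these are not independent measures.

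Reads placed on the wrong strand would add to the antisense counts, and the antisense rate of miRNAs is set beside that of the unit. The miRNA rate does not measure such reads of the unit. In eri-1, all antisense reads of the unit came to 0.536 per 1000000 sense reads, far below the miRNA rate of 76.8. The antisense rate of the whole unit exceeded the miRNA rate of the same library in 1 of 8 L3 total libraries, 2 of 5 NRDE-3 IP libraries and 0 of 4 RNAi libraries. In dis-3 the unit had 637 antisense reads per 1000000 sense reads, beside 94.6 for miRNAs. In exos-1 the unit had 70.2 beside 162 for miRNAs, and in N2 8.76 beside 58.5. Among the eri-1 strains, the unit had 5.26 in eri-1 dis-3 rrf-1 rrf-2 beside 95.7 for miRNAs, 105.4 in eri-1 dis-3 beside 134 and 126 in eri-1 exos-1 beside 205. In eri-1 exos-10 it had 75.8 beside 223, and in eri-1 0.536 beside 76.8. On RNAi the unit had 51.6 for fib-1 beside 190.0, 40.6 for mtr-4 beside 309, 20.8 for nol-56 beside 107 and 8.57 for L4440 beside 324. In the NRDE-3 IP the unit lay above miRNAs in the library labelled eri-1 exos-1, at 31769 beside 13754, and in eri-1 exos-10, at 207071 beside 19223, and below them in the other 3. Subtracting antisense reads at the miRNA rate left reads in 8 of 51 library and rRNA pairs and gave no ratio for any comparison. It took off more than the unit held wherever the unit lay below miRNAs, so nothing was concluded from it. The part of wrong-strand reads in the total libraries was not tested.

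The 5S genes, made by another polymerase, had 38.4 antisense reads per 1000000 sense reads in dis-3 (6 reads) and 140.3 in exos-1 (26 reads), against 51.6 in N2 (7 reads). They had 47.3 in eri-1 dis-3 (4 reads), 722 in eri-1 exos-1 (52 reads) and 9.08 in eri-1 exos-10 (1 read), against 48.4 in eri-1 (3 reads). Most of these counts are near the floor of 3 reads. In the NRDE-3 IP they had 51753 in the library labelled eri-1 exos-1 and 548444 in eri-1 exos-10, against 8040 in eri-1 (307 reads). In NRDE-3 IP eri-1 dis-3 the rate was lower than in eri-1, at 1364 from 41 reads. In NRDE-3 IP eri-1 exos-10 the 5S rate was thus above that of 26S, which was 258 per 1000. No test was run on 5S.

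Some genes outside class rRNA had an antisense pattern like that of rrn-3.1. By Pearson's r of the log2 antisense level over the 17 libraries, among 8782 genes, the closest were alg-1 (0.928), F16A11.5 (0.907), R144.15 (0.897), dve-1 (0.884) and rps-9 (0.884). ALG-1 is an Argonaute of the miRNA pathway, DVE-1 a homeodomain factor of the mitochondrial stress response and RPS-9 a protein of the small ribosomal subunit. Apart from rps-9, these genes share the high antisense levels of the NRDE-3 IP libraries. For rps-9, the NRDE-3 IP held 23 antisense reads in eri-1 and 36 in eri-1 dis-3, against 75 on fib-1 RNAi. It held 392 in the library labelled eri-1 exos-1 and 425 in eri-1 exos-10. Over the 8 L3 total libraries alone, r was 0.69 for alg-1, 0.83 for F16A11.5, 0.61 for R144.15, 0.48 for dve-1 and 0.91 for rps-9. The other members had r of 0.951 (rrn-1.1), 0.958 (rrn-1.2) and 0.891 (rrn-2.1) over the 17 libraries, and over the 8 it was 0.82, 0.91 and 0.21 in the same order. Ranked over the 8 L3 total libraries, the closest genes were other ones, lys-1 (0.983), fmo-1 (0.975), rgs-7 (0.974), ptr-12 (0.968) and cdd-1 (0.957), with higher r than any of the other members. LYS-1 is a lysozyme.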

How the data were processed

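Reads of 18 to 40 nt inserts by the labels, or 18 to 30 nt by the methods of the study, were taken after phosphatase and kinase treatment. The authors mapped them with Bowtie2 (version not given in the sources used here) to the genome and the WS243 transcriptome and deposited counts of sense and antisense reads per transcript, without normalization. Up to 3 empty cells in a library counted as 0. Members and lists were chosen with earlier results of these data known. Lengths and positions were taken from the Ensembl annotation of WBcel235, which matched 44848 gene IDs.

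Levels are reads per 1000000 reads counted on transcripts, sense and antisense. The other denominators were a normalization number after that of the study, sense miRNA reads and median-of-ratios size factors. The normalization number was all counted reads less those on sense rRNA and on sense mRNA. The study's own number starts from all reads mapped to the genome, so its values may differ. Ratios between libraries have exact conditional binomial 95% intervals and were read as different where the interval left out 1. Single rates and shares have Wilson intervals. Against 0 reads, ratios were calculated with a floor of 3 reads, which is 0.175 to 0.589 reads per 1000000. The 95% limit given beside them is that of the exact interval. For the share of all genes past 2-fold, genes needed 10 antisense reads in either library and, per sense read, 10 sense reads in both, with a pseudocount of 1 read. The named genes besides the members are the 5 most like rrn-3.1, with at least 10 antisense reads in at least 5 libraries. Intervals and calls were tested on simulated Poisson counts, which hold counting error only and no variation between libraries. Python 3.11.15, numpy 2.4.6, scipy 1.17.1, pandas 2.3.3 and matplotlib 3.10.9 were used. No value of exos-10 itself is reported here.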

Additional observations from a re-analysis of the deposited data

Results flagged for a closer look

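The effect of exos-1 on the antisense rate of 26S differed between backgrounds. The rate was 132 per 1000000 sense reads in eri-1 exos-1 and 0.891 per 1000000 in eri-1, and 87.2 per 1000000 in exos-1 and 11.6 per 1000000 in N2. The ratio in the eri-1 background was 19.7 times that in the N2 background (95% interval 2.94 to 839, adjusted p = 0.000337 over 6 exact conditional tests, two-sided). It rests on 1 antisense read in eri-1 and 14 in N2, with 1 library each. For dis-3 the same quantity was 2.06 (0.310 to 87.7), and for 18S in exos-1 the adjusted p was 0.0510.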

How the results depend on the processing

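Over 96 alternative antisense level ratios, 90 kept their direction and their side of the threshold. With size factors, that of 18S in the NRDE-3 IP library labelled eri-1 exos-1 was 0.854. For 5.8S in NRDE-3 IP eri-1 dis-3 rrf-1 rrf-2 against eri-1 dis-3 it was 0.512 with the normalization number, 0.541 with sense miRNA reads and 0.514 with size factors. The interval of 18S on nol-56 RNAi held 1 with the normalization number (4.39) and sense miRNA reads (2.51). Per sense read, rrn-1.1 alone gave 1.59 for 18S in exos-1 and 1.197 in eri-1 exos-10, both with intervals that held 1. The other 11 ratios with rrn-1.1 alone, and all 12 with rrn-1.2 alone, kept their direction and side of the threshold. Sense level ratios depended more on the denominator, and the cause was not tested. With size factors they turned to 0.942 (18S, exos-1), 1.28 (18S, eri-1 dis-3), 1.02 (5.8S, eri-1 exos-1), 2.35 (18S, NRDE-3 IP eri-1 dis-3), 0.483 (18S, NRDE-3 IP eri-1 dis-3 rrf-1 rrf-2), 1.18 (18S, fib-1 RNAi) and 1.25 (26S, mtr-4 RNAi), and that of 5.8S on nol-56 RNAi moved to 1.71. With the normalization number they turned to 5.77 (18S, NRDE-3 IP eri-1 dis-3), 0.482 (18S, NRDE-3 IP eri-1 dis-3 rrf-1 rrf-2), 0.829 and 0.839 (18S and 5.8S, mtr-4 RNAi) and 0.960 (5.8S, nol-56 RNAi). With sense miRNA reads they turned to 1.01 (18S, eri-1 dis-3), 1.11 (5.8S, eri-1 exos-1), 48.2 (18S, NRDE-3 IP eri-1 dis-3), 1.37, 2.14 and 1.30 (26S, 18S and 5.8S, NRDE-3 IP library labelled eri-1 exos-1), 2.92, 3.78 and 3.98 (26S, 18S and 5.8S, NRDE-3 IP eri-1 exos-10) and 0.509 (18S, NRDE-3 IP eri-1 dis-3 rrf-1 rrf-2). On RNAi they turned to 0.855 (5.8S, fib-1), 0.697 and 0.705 (18S and 5.8S, mtr-4) and 0.615, 0.763 and 0.549 (26S, 18S and 5.8S, nol-56). With effective length the 5.8S density relative to 26S was 1.12 in dis-3 and 1.01 in N2.

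No paired analysis was possible because each condition has 1 library, and none could be left out. Depth limits 5.8S most, with 0 to 5 antisense reads in the total libraries.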
